A study of Chlorocebus aethiops with 3 samples.

Results

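The genes described here encode nuclear-encoded subunits of respiratory complex I and the complex I assembly factor TMEM126A. They were taken from Agilent 2-colour arrays as 34 RefSeq mRNA accessions among the 32695 sequence accessions that the array's probes carry. A probe was found for 33 of the 34, and NDUFB6 (NM_002493) was not analysed here. Each accession is represented by its brightest probe, the one with the highest mean log2 signal over both dyes. That left 32 subunit accessions, of which 31 could be tested, and TMEM126A. TMEM126A was included because it was among the 2 RefSeq mRNAs with the largest rise on these same arrays, so its own ratio is given as a description and not as a test. The scanner tables give accessions and no gene names. The gene names used here were attached to the accessions from general knowledge of RefSeq and were not checked against a table, and each name stands beside its accession where the gene is first described.

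Complex I, or NADH:ubiquinone oxidoreductase, is the entry point of electrons from NADH into the respiratory chain of the mitochondrial inner membrane. Its peripheral arm, in the matrix, carries the flavin and the iron-sulfur clusters that pass electrons to ubiquinone, and its membrane arm pumps protons. The hydrophobic core of the membrane arm is encoded by mitochondrial DNA and made on mitochondrial ribosomes. All other subunits are encoded in the nucleus and translated in the cytoplasm, so their mRNAs can sit in cytoplasmic polysomes. Nuclear subunits divide into the core subunits that carry out the redox chemistry and accessory subunits that surround them, and assembly factors such as TMEM126A help to join the parts without staying in the finished enzyme.

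The RNA came from COS-7 cells, an established African green monkey kidney line with a fibroblast-like form that carries SV40 large T antigen. Cells received either siRNAs against the coding region of human RNA helicase A (RHA, gene DHX9, NM_001357), at nucleotides 2701 to 2721 and 2784 to 2803, or scrambled siRNA as the control, at a final 0.5 nM. Each transfection began with 4 hours without serum, continued for 24 hours in medium with serum, and was repeated after the cells had been split. RNA was taken from the pooled heavy polysome fractions of 15% to 45% sucrose gradients, to which transcripts loaded with many ribosomes travel, and the question was how polysome loading changes when RHA is lowered. On each of 3 arrays, described as biological replicates 1 to 3, knockdown RNA carried Cy5 and control RNA Cy3. A log2 ratio above 0 means that an mRNA was more abundant in heavy polysomes of knockdown cells. The dyes were never swapped, so a dye effect and a knockdown effect cannot be told apart. Likewise, a change in the amount of an mRNA in the cell and a change in its share in heavy polysomes cannot be told apart from these ratios. The probes were designed for human transcripts, and their match to monkey sequence was not tested.

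In the control channel 37.5% to 50.7% of the 41000 probes were well above background, and in the knockdown channel 45.5% to 53.1%. The targeted message itself gave no called fall: the tested RHA probes A_24_P36847 and A_23_P97749 had mean log2 ratios of -0.33 ± 0.37 and -0.28 ± 0.29 (SD, n = 3), with limma adjusted p of 0.210 and 0.217. The arrays therefore do not show by themselves that RHA was lowered, and the groups are named after the labels.

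Relative to the loess curve fitted to each array, complex I subunit mRNAs changed in both directions. Of the 31 subunit mRNAs tested, 2 rose and 6 fell at a limma adjusted p below 0.05, and 23 were not called. NDUFC1 and NDUFB3 rose. NDUFV1, NDUFS3, NDUFS7, NDUFB7, NDUFB8 and NDUFAB1 fell, to between 0.503 and 0.612 times the control level. The loess curve sets 0 at the typical ratio of probes of like brightness. With each array centred on the median of all its probes instead, 9 subunits rose and 0 fell (limma, with 0 subunits below 0 at an unadjusted p under 0.05). With centring on tested probes alone 7 rose and 1 fell. The whole array moved likewise: of 18143 tested probes, 3604 rose and 58 fell with the first centring, and 3127 rose and 1087 fell with the second. These centrings called 20.4% and 23.7% of all accessions. No subunit called with loess was called in the opposite direction under these or the other alternatives.

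The called share of the subunits, 8 of 31 or 25.8%, stands beside 19.3% of all 14520 accessions with a tested brightest probe. By direction, 9.94% of all accessions rose and 9.33% fell. Bright probes were called more often than dim ones, and the subunit probes were mostly bright. With all tested accessions in 5 equal classes of brightness, 25 of the 31 subunits lay in the brightest class, where 37.2% of accessions were called, and all 8 called subunits were among these 25. The called share of the subunits was thus not above that of equally bright accessions. The median log2 ratio of the 31 subunits was -0.20, and that of all accessions 0.010. At the lower end, 10% of all accessions lay below -0.54, and 10 of the 31 subunits did. At the upper end, 10% of all accessions lay above 0.54, as did 4 subunits. These tails were not worked out for the brightest class alone, which held 25 of the 31 subunits. No set test was run, since the genes were chosen with results of these data known.

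**Figure D1:**
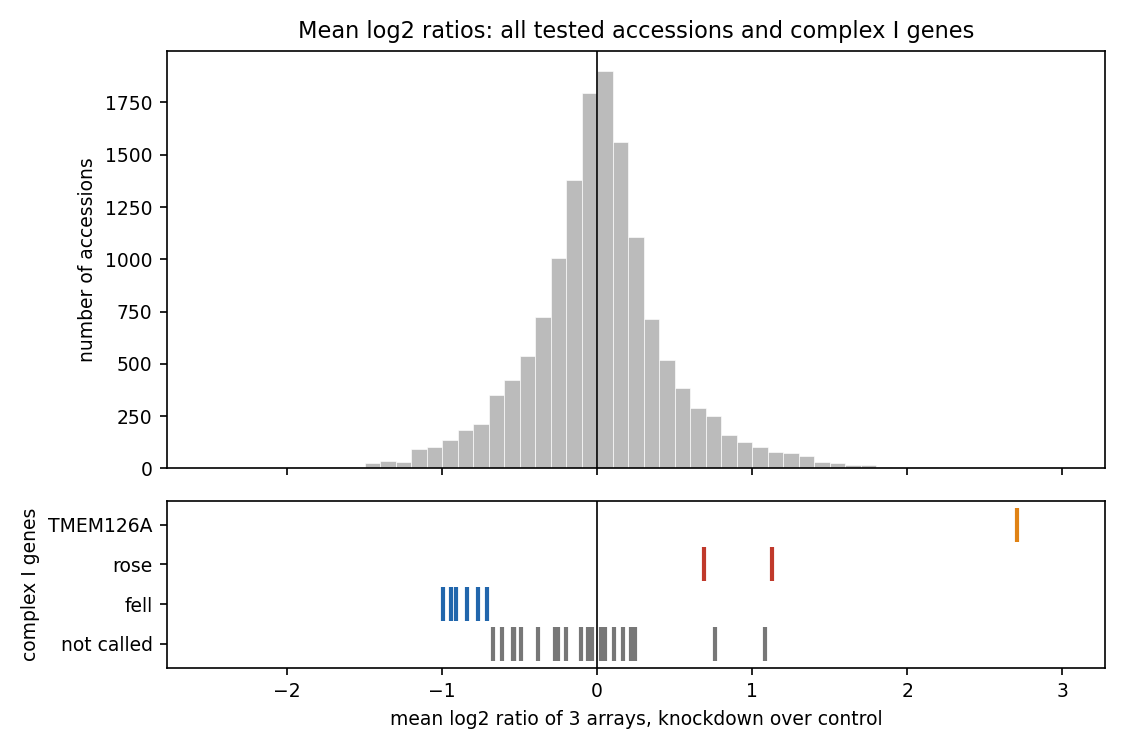
Mean log2 ratio of knockdown over control over 3 arrays, as a histogram of the 14520 accessions with a tested brightest probe (upper panel, number of accessions per bin of 0.1) and as 1 tick per complex I gene reported singly (lower panel). The 6 fallen subunits lie between -0.99 and -0.71 and the 2 risen ones at 0.69 and 1.13, relative to the loess curve. With median centring of all probes, 0 subunits and 58 of 18143 tested probes fell. TMEM126A, at 2.71, was chosen for its rise.

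On single arrays, 20, 19 and 16 of the 31 subunits lay below 0 on replicates 1, 2 and 3, with medians of -0.41, -0.25 and -0.0016. These counts and medians are relative to the loess curve, and no test of a shift of the set was made. On all 3 arrays 13 subunits were below 0 and 7 above it, or 41.9% and 22.6%, against 27.5% and 31.1% of all accessions. The shares among equally bright accessions were not worked out. Replicate 1 spread the subunits most, with an SD across them of 0.89 against 0.51 and 0.45 on replicates 2 and 3. All accessions were spread in the same order, with 0.63, 0.49 and 0.44. Without replicate 1 the subunit median was -0.082, and without replicate 3 it was -0.31. Without replicate 1, 3 subunits rose and 4 fell, and without replicate 3, 2 rose and 8 fell. Of all accessions, 14.0% were called without replicate 1 and 17.2% without replicate 3. Without replicate 2, limma called 0 subunits, with an unadjusted p under 0.05 for 4 subunits above 0 and 9 below it, and it called 0 of all probes. Of the 18140 probes in that fit, 2228 above 0 and 2010 below it had such an unadjusted p. The adjusted p of the 8 called subunits was then 0.117 to 0.204.

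**Figure D2:**
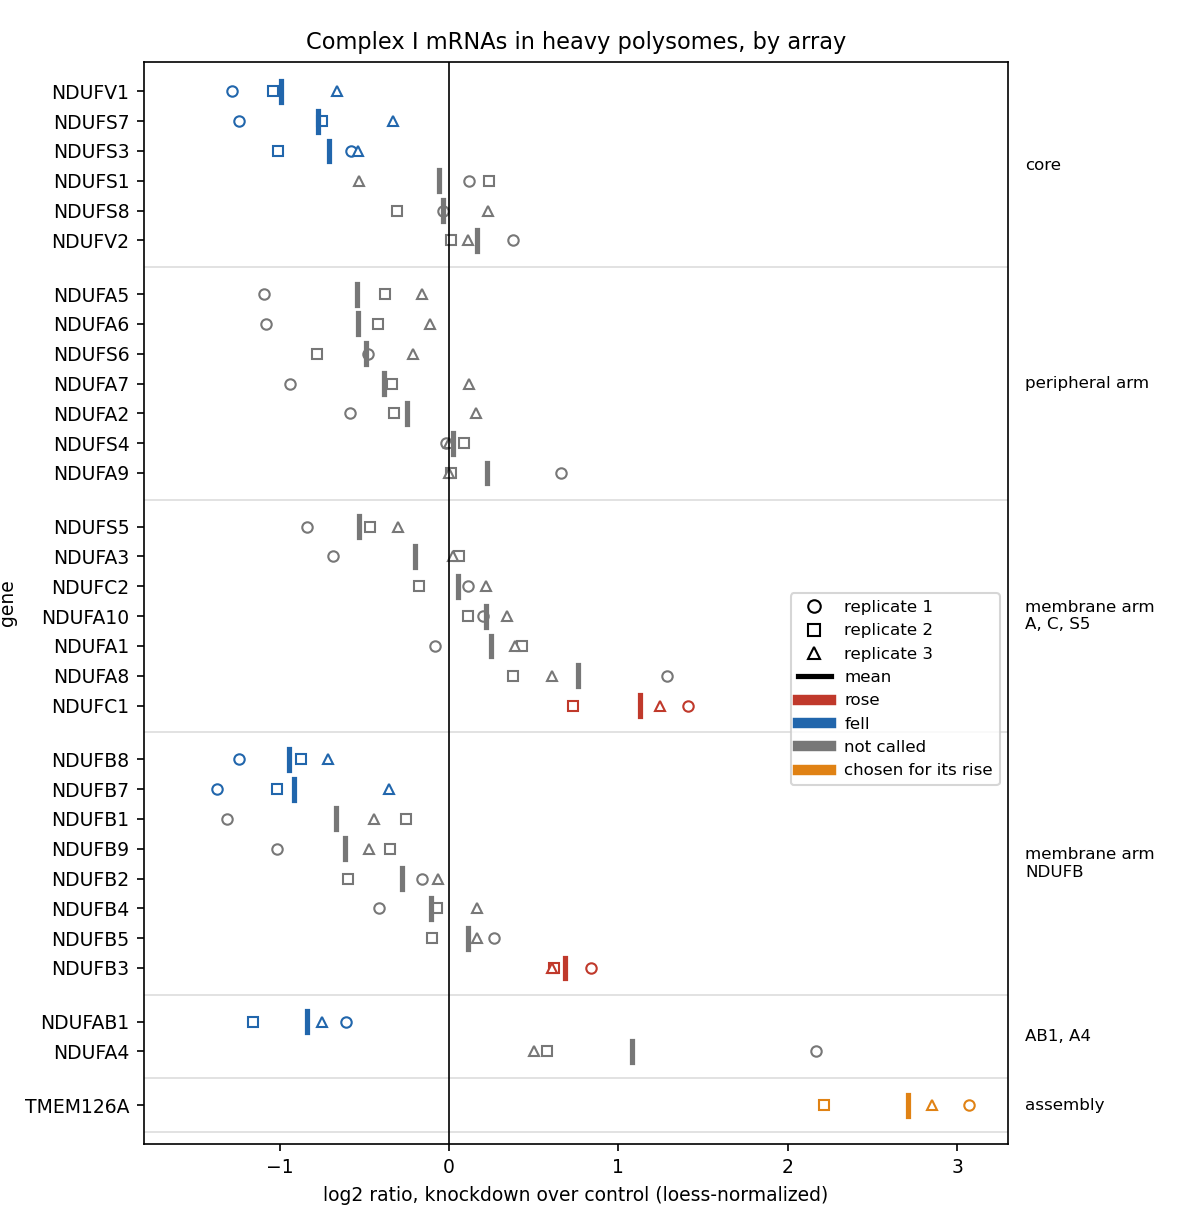
Log2 ratio of knockdown over control on each array for 30 of the 31 tested subunits and TMEM126A, grouped by place in complex I. Symbols stand for replicates 1 to 3, the vertical bar for their mean, and colour for the call at a limma adjusted p below 0.05. The called genes lie on 1 side of 0 on all 3 arrays, relative to the loess curve, and many uncalled ones straddle 0.

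Among the 7 core subunits, which hold the flavin and iron-sulfur centres or bind ubiquinone, 3 fell, none rose and 4 were not called. The brightest class, where 37.2% of accessions were called in either direction, held 6 of these 7, and its share of falls was not worked out. NDUFV1 (NM_007103), the subunit that binds NADH and the flavin FMN, gave -1.28, -1.04 and -0.66 as its log2 ratios on replicates 1, 2 and 3. All 3 arrays were below 0, and the mean of -0.99 ± 0.31 (SD, n = 3) corresponds to 0.503 times the control level (95% interval of the log2 ratio -1.36 to -0.62, limma adjusted p = 0.0196). It was the lowest of the 31 subunit means, and its mean was below 0 in every alternative run, though with median centring of all probes it was -0.32 and not called (limma adjusted p = 0.263). NDUFS7 (NM_024407), which carries the iron-sulfur cluster N2 next to the ubiquinone site, had -1.24, -0.75 and -0.33. It was lowest on replicate 1, with a mean of -0.77 ± 0.46 (SD, n = 3), equal to 0.586 times control (limma adjusted p = 0.0472). NDUFS3 (NM_004551), a structural core subunit of the ubiquinone-binding region, had -0.58, -1.01 and -0.54. Its mean was -0.71 ± 0.26 (SD, n = 3), equal to 0.612 times control (limma adjusted p = 0.0281), with replicate 2 the lowest array. The calls for NDUFS7 and NDUFS3 were less firm: with median centring of all probes their means were 0.085 and 0.018, and with Agilent's processed log ratio they missed the threshold at a limma adjusted p of 0.0741 and 0.0739. NDUFS7 also missed it without replicate 1, with a mean of -0.54 and a limma adjusted p of 0.0732. With no filter on dim probes, the limma adjusted p was 0.108 for NDUFS7 and 0.0513 for NDUFS3.

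The other core subunits described here had means near 0. NDUFV2 (NM_021074), which carries an iron-sulfur cluster and lies beside NDUFV1 in the NADH-oxidizing module, had 0.38, 0.012 and 0.12, all above 0 and opposite in sign to those of NDUFV1, with a mean of 0.17 ± 0.19 (SD, n = 3). NDUFS1 (NM_005006), the largest nuclear subunit and carrier of several iron-sulfur clusters, had 0.12, 0.24 and -0.53, so replicate 3 alone was below 0. NDUFS8 (NM_002496), a carrier of iron-sulfur clusters, had -0.034, -0.30 and 0.23, with signs that differed between arrays. The limma adjusted p of these 3 ran from 0.350 to 0.873, and their 95% intervals together from -0.50 to 0.46, all relative to the loess curve. Median centring of all probes raised NDUFV2 to 0.96 and NDUFS8 to 0.80, where both were called (limma adjusted p of 0.0247 and 0.0279). With centring on tested probes they were called too, at 0.64 and 0.48 (limma adjusted p of 0.0123 and 0.0442).

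None of the 7 accessory subunits of the peripheral arm was called (limma), with 3 of them at an unadjusted p under 0.05. Such a p was reached by 5290 of the 14520 accessions with a tested brightest probe. The brightest class held 4 of these 7 subunits. Means of the 7 ran from -0.54 to 0.22 around a median of -0.38. NDUFS6 (NM_004553), a zinc-binding subunit, had -0.48, -0.78 and -0.21, below 0 on every array, with a mean of -0.49 ± 0.28 (SD, n = 3) and a limma adjusted p of 0.0662. NDUFA5 (NM_005000) and NDUFA6 (NM_002490), the latter a member of the LYR protein family, were below 0 on every array as well, with means of -0.54 ± 0.49 (SD, n = 3) and -0.54 ± 0.50 (SD, n = 3). In both, replicate 1 was the lowest array, at -1.09 and -1.08, and replicate 3 was near 0, at -0.16 and -0.11. NDUFA7 (NM_005001) and NDUFA2 (NM_002488) followed the same order of arrays and were above 0 on replicate 3, with means of -0.38 ± 0.53 (SD, n = 3) and -0.25 ± 0.38 (SD, n = 3). NDUFS4 (NM_002495), which helps to hold the NADH-oxidizing module in place and is a known site of mutations in Leigh syndrome, had -0.017, 0.089 and -0.0020. Its ratios were the closest to each other among the 31 tested subunits, and its 95% interval was -0.22 to 0.26. NDUFA9 (NM_005002), which binds a nucleotide cofactor near the ubiquinone site, had 0.66 on replicate 1 against 0.0096 and -0.0016 on replicates 2 and 3. Under the alternatives, NDUFA6 was called as fallen in 2 of 12 and NDUFS6 in 1 of 12.

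Of the 7 accessory subunits placed in the part of the membrane arm that joins the peripheral arm, 1 rose, none fell and 6 were not called. Here too 6 of the 7 lay in the brightest class, with its called share of 37.2% of accessions in either direction. NDUFC1 (NM_002494), a small single-span membrane subunit, had log2 ratios of 1.41, 0.73 and 1.25. All 3 were above 0, with replicate 2 the lowest, and the mean of 1.13 ± 0.36 (SD, n = 3) is a 2.19-fold rise (95% interval of the log2 ratio 0.73 to 1.53, limma adjusted p = 0.0182). The size depended on the scaling: its mean was 1.93 with median centring of all probes and 1.61 with centring on tested probes, called in both. Its Cy3 spot signals were 678, 765 and 2502 and its Cy5 signals 3485, 4034 and 18978 before normalization, in arbitrary units. NDUFC1 stayed past the threshold in 11 of 12 alternatives, the exception being the fit without replicate 2, at 1.33 and a limma adjusted p of 0.117. NDUFC2 (NM_004549), which lies next to NDUFC1 in the complex, had 0.11, -0.17 and 0.22 and a mean of 0.052 ± 0.20 (SD, n = 3). The 95% interval of NDUFC2 was -0.25 to 0.35, and the difference between NDUFC1 and NDUFC2 was not tested. NDUFA8 (NM_014222), an intermembrane space protein with twin CX9C motifs, had 1.29, 0.38 and 0.61 and a mean of 0.76 ± 0.47 (SD, n = 3), 1.69 times the control level. It missed the threshold narrowly at a limma adjusted p of 0.0520 and passed it in 7 of 12 alternatives. Median centring of all probes gave called means of 1.63 for NDUFA8 and 0.72 for NDUFC2, at a limma adjusted p of 0.0142 and 0.0309.

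NDUFS5 (NM_004552), another twin CX9C protein of the intermembrane space, lay on the other side of 0, at -0.84, -0.46 and -0.30. Its mean was -0.53 ± 0.28 (SD, n = 3) with a limma adjusted p of 0.0525, again close to the threshold, and with median centring of all probes its mean was 0.43. It was called as fallen in 4 of 12 alternatives. The 95% intervals of NDUFS5 and NDUFA8 were -0.88 to -0.19 and 0.27 to 1.25, and the difference between them was not tested. NDUFA1 (NM_004541), a small X-linked membrane subunit, had -0.083, 0.43 and 0.39, with replicate 1 alone below 0. NDUFA10 (NM_004544), a matrix-facing subunit related to nucleoside kinases, had 0.20, 0.11 and 0.35, above 0 on every array. NDUFA3 (NM_004542) had -0.68, 0.060 and 0.027, so its mean of -0.20 rested on replicate 1. The limma adjusted p of these 3 ran from 0.193 to 0.469. NDUFA1 was called upward with median centring of all probes, at 1.15 (limma adjusted p = 0.0405), and with centring on tested probes, at 0.84 (limma adjusted p = 0.0252).

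The NDUFB subunits belong to the outer part of the membrane arm, and they held both risen and fallen mRNAs. Of 8 tested, 1 rose, 2 fell and 5 were not called. The brightest class, where 37.2% of accessions were called in either direction, held 7 of these 8. NDUFB3 (NM_002491) had 0.84, 0.62 and 0.61, with replicates 2 and 3 close together and replicate 1 above them. Its mean of 0.69 ± 0.13 (SD, n = 3) is a 1.61-fold rise (95% interval of the log2 ratio 0.42 to 0.95, limma adjusted p = 0.0205), lost with Agilent's processed log ratio at a limma adjusted p of 0.0665. It was called at larger means with median centring of all probes, at 1.51, and with centring on tested probes, at 1.19. NDUFB8 (NM_005004), often used as the antibody target that reports assembled complex I, had -1.24, -0.87 and -0.72, all well below 0. Its mean of -0.94 ± 0.27 (SD, n = 3) is 0.520 times the control level (95% interval of the log2 ratio -1.28 to -0.61, limma adjusted p = 0.0186). NDUFB7 (NM_004146), a twin CX9C protein on the intermembrane space side, had -1.37, -1.02 and -0.35, spread more widely than NDUFB8, with a mean of -0.91 ± 0.52 (SD, n = 3), equal to 0.531 times control (limma adjusted p = 0.0403). Median centring of all probes brought NDUFB8 and NDUFB7 to -0.092 and -0.10, neither called. Without replicate 1, NDUFB7 had a mean of -0.69 and a limma adjusted p of 0.0660, and when dim probes were kept in the fit the adjusted p was 0.0968.

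Of the other NDUFB subunits, NDUFB9 (NM_005005), an LYR protein, and NDUFB1 (NM_004545), a small single-span protein, were below 0 on every array without passing the test. NDUFB9 had -1.02, -0.35 and -0.47, a mean of -0.61 ± 0.36 (SD, n = 3) and a limma adjusted p of 0.0542. It was called as fallen in 1 of 12 alternatives. NDUFB1 had -1.31, -0.25 and -0.44, with replicate 1 far below the others, a mean of -0.67 ± 0.56 (SD, n = 3) and a limma adjusted p of 0.0970. NDUFB2 (NM_004546) was below 0 on every array too, at a mean of -0.27 ± 0.29 (SD, n = 3), while NDUFB4 (NM_004547) and NDUFB5 (NM_002492) had signs that differed between arrays and means of -0.11 ± 0.29 (SD, n = 3) and 0.11 ± 0.19 (SD, n = 3). NDUFB10 (NM_004548) was not tested: its single probe cleared the background on 2 of 3 arrays for control RNA and on 1 of 3 for knockdown RNA. Every one of the 31 tested subunits was well above background in both channels on all 3 arrays, so none entered the test through 1 group alone. NDUFB2 turned above 0 when all probes set the centre, at 0.67 and a limma adjusted p of 0.0368.

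NDUFAB1 (NM_005003), the mitochondrial acyl carrier protein, binds LYR subunits in both arms of complex I and also serves mitochondrial fatty acid synthesis and iron-sulfur cluster assembly. It had -0.61, -1.16 and -0.75, with replicate 2 the lowest, and it fell, with a mean of -0.84 ± 0.28 (SD, n = 3) that is 0.559 times control (95% interval -1.19 to -0.49, limma adjusted p = 0.0233). With median centring of all probes its mean was -0.039 and not called. NDUFA4 (NM_002489), named as a complex I subunit and since placed in cytochrome c oxidase, had 2.17, 0.58 and 0.50. Replicate 1 was far above the other arrays, which set a wide spread around the mean of 1.08 ± 0.94 (SD, n = 3), and NDUFA4 was not called (limma adjusted p = 0.0911). The value depended on replicate 1: without it the mean was 0.54, at a limma adjusted p of 0.0475. NDUFA4 was called in 7 of 12 alternatives, always upward. It stood second to NDUFC1 among the 31 subunit means. Its mean with median centring of all probes was 1.94, at a limma adjusted p of 0.0231.

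By place in the complex, median log2 ratios on replicates 1, 2 and 3 were -0.034, -0.30 and -0.33 for the core subunits and -0.59, -0.33 and -0.0020 for the accessory subunits of the peripheral arm. In the membrane arm they were 0.11, 0.11 and 0.35 for the part next to the peripheral arm, above 0 on each array, and -0.72, -0.30 and -0.21 for the NDUFB subunits, below 0 on each array. These signs are relative to the loess curve: with median centring of all probes the medians of the group means were 0.54, 0.28, 0.72 and 0.36 in the same order. The difference between these groups was not tested, and with loess each of the 4 groups held subunit means on both sides of 0.

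TMEM126A (NM_032273), an inner membrane protein that takes part in assembling the proton-pumping arm of complex I and is mutated in a recessive optic atrophy, was far outside the range of the subunits. Its single probe, A_23_P13524, had Cy3 spot signals of 73, 120 and 226 and Cy5 signals of 1592, 1852 and 4899 on replicates 1, 2 and 3, in arbitrary units, over local backgrounds of 24 to 30.5 and 54 to 59. These gave log2 ratios of 3.07, 2.21 and 2.85. Their mean was 2.71 ± 0.45 (SD, n = 3), which is 6.55-fold. It ranked 2 among RefSeq mRNAs that rose on all 3 arrays, just under a mean of 2.73 and above 2.55 for the next accession down. These values chose TMEM126A and support nothing further. Over the alternatives its mean was 2.53 without replicate 1 at the lowest and 3.36 with median centring of all probes at the highest. The subunit mean nearest to it, that of NDUFC1, was 1.13. The array offers no second probe for TMEM126A.

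A second tested probe existed for 10 subunits and gives values that the choice of the brightest probe did not use, though from the same RNA and arrays. The sign of the mean was the same for both probes in 9 of 10 pairs, and the size of the difference between them had a median of 0.18 on the log2 scale. For NDUFA9 and NDUFA10, the other probe was well above background on 1 of 3 arrays for control RNA and 3 of 3 for knockdown RNA. For NDUFA6 it was so on 3 of 3 for control RNA and 1 of 3 for knockdown RNA. These other probes entered the test through 1 group alone, so their signs add no support. For NDUFB7, the other probe, A_23_P50872, had -0.95, -0.63 and -0.11 on replicates 1, 2 and 3, below 0 on each array like the brightest but smaller in size, and it was not called (limma adjusted p = 0.0881). For NDUFS7, A_23_P165090 had -0.78, -0.62 and -0.21, again lower in size and not called (limma adjusted p = 0.0570). Both falls thus had the same direction in a second probe and passed the test in the brighter probe alone. With the tested probes of each gene averaged, NDUFS7 was called, at -0.65 (limma adjusted p = 0.0453). NDUFB7 was then not called, at -0.74 (limma adjusted p = 0.0515). NDUFA4 gave 1.89, 0.45 and 0.40 with A_32_P98313, so the high value on replicate 1 was present in both of its probes. The exception in sign was NDUFA5, where A_32_P96641 had a mean of -0.54 and the dimmer A_23_P215751 0.24, a difference of 0.78 ± 0.46 (SD of the difference, n = 3). Whether the probes of a gene overlap in sequence was not tested. The other 6 called subunits have 1 probe each.

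**Figure D3:**
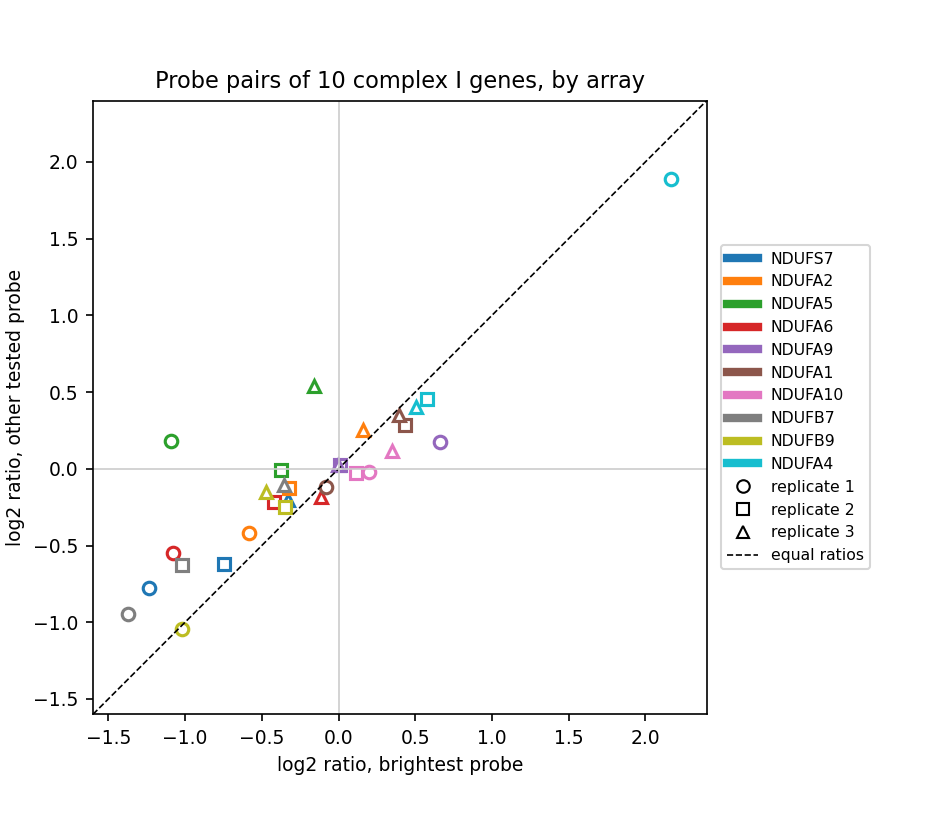
Log2 ratio of the brightest probe (horizontal axis) against that of the other tested probe (vertical axis) of 10 subunits, with 1 symbol per array and 1 colour per gene, and the dashed line at equal ratios. NDUFA4 on replicate 1 is high in both probes, at 2.17 and 1.89, and NDUFA5 lies away from the line, at -1.09 and 0.18 on that array.

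How the zero of the ratios is placed mattered more for these bright probes than for most. Median centring of all probes moved the median of all tested accessions from 0.010 to 0.31 and that of the 31 subunits from -0.20 to 0.54. Relative to all accessions, the subunit median therefore was -0.21 with loess and 0.22 with median centring. Set against the accessions of the brightest class alone, the direction did not turn: the 25 subunits of that class had a median of -0.25 against -0.019 with loess, and 0.58 against 0.73 with median centring. NDUFC1, NDUFB3, NDUFA8 and NDUFA4 were above 0 in all 6 ways of scaling that were run. Of the fallen subunits, NDUFV1, NDUFB8, NDUFB7 and NDUFAB1 were below 0 in all 6. With median centring of all probes, NDUFB8, NDUFB7 and NDUFAB1 were close to 0, at -0.092, -0.097 and -0.039, while NDUFS3 and NDUFS7 changed sign.

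**Figure D4:**
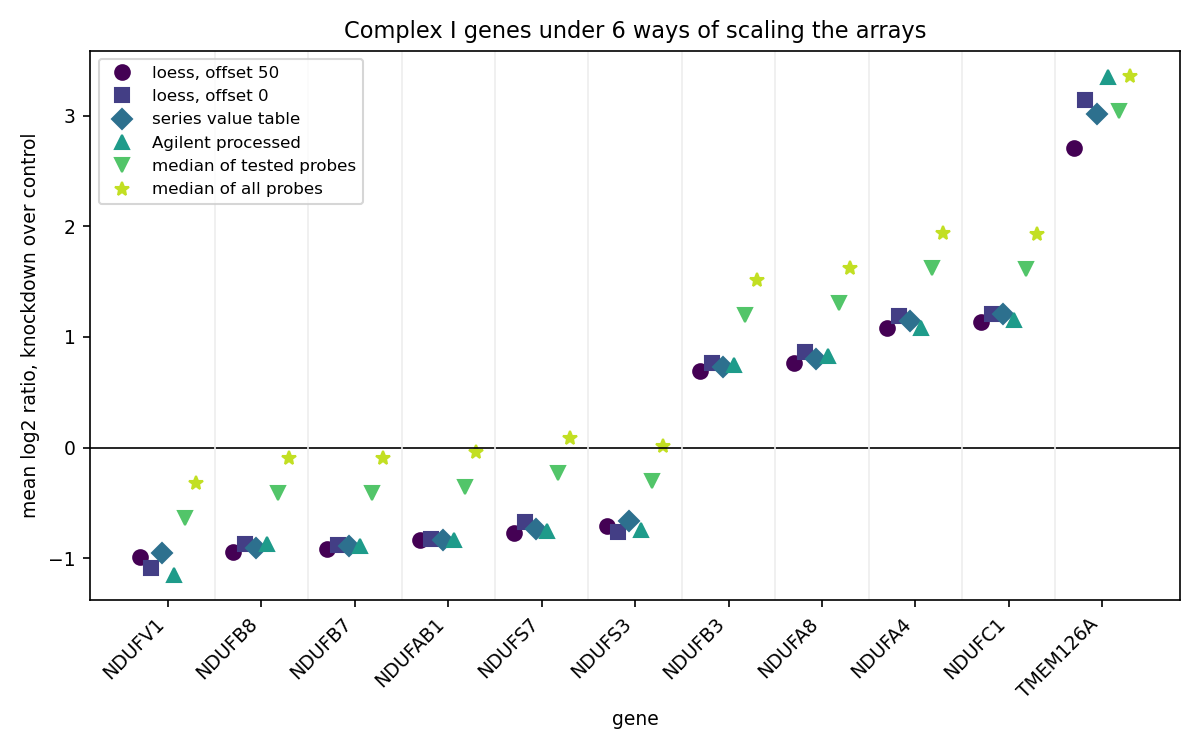
Mean log2 ratio of knockdown over control under 6 ways of scaling the arrays for the 8 called subunits, NDUFA8, NDUFA4 and TMEM126A. Loess with 2 offsets, the series value table and Agilent's processed ratio lie close together, and both kinds of median centring lie higher for every gene but TMEM126A, where the plain loess value of 2.71 is the lowest.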

How the data were processed

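The 3 deposited scanner tables were analysed, each from 1 array of Agilent design 014850. Per the file headers, the authors read spot and background intensity values from the scans in Agilent Feature Extraction 10.9.1.1, whose log10 ratio of Cy5 over Cy3 was deposited beside them. That ratio was exactly 0 on 31.1% of spots and equal to the ratio of the processed signals on 68.9%. How many spots of tested probes were set to 0 was not worked out. Version 10.9 and limma are named in the submitters' processing notes. A series value table deposited by the authors gives log2 ratios of unstated scale, centring and direction. They followed the loess ratios used here with Pearson's r of 0.965, 0.946 and 0.946, positive slopes, and medians of 0, 0.010 and 0.010 on replicates 1, 2 and 3, and served as an alternative.

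In R 4.3.3 with limma 3.58.1, median spot signals were background-corrected (normexp, offset 50) and loess-normalized with control spots at weight 0. The offset pulls ratios of dim probes toward 0. Between 142 and 150 outlier spots per array were left out, and 0 probe spots were saturated. The 18143 of 41000 probes that were well above background in the same channel, or in both, on every array were tested against 0 with the 2-sided lmFit and eBayes test and Benjamini-Hochberg adjustment over all of them at a threshold of 0.05. With 1 ratio per array and n = 3, the smallest p of an exact sign-flip test is 0.25, and precision is limited by the number of arrays. The fit was tested on simulated data.

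The genes were chosen with earlier results of these data known. The rule for named genes was that every gene of the set is accounted for, called ones by their values on each array. One tested subunit is counted in the totals and is not reported singly here. That rule took gene names from tables alone. With none given, accessions were named from general knowledge, a change made after the files were seen, as was the setting beside equally bright accessions. The planned lists of other complex I genes, of complexes II to V and of fibroblast, epithelial and blood cell markers were not analysed here, since they needed such a table, so the cell type was not checked against markers.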

Additional observations from a re-analysis of the deposited data

How the results depend on the processing

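The fit was itself paired, since each ratio compares 2 paired samples on 1 array, and the arrays form 1 group. Called subunits were 2 risen and 6 fallen. Risen subunits were 4 with a normexp offset of 0, 4 with the series value table, 4 with an intensity trend, 9 with median centring and 7 with centring on tested probes. In the same order, 29.3%, 25.8%, 31.2%, 20.4% and 23.7% of all accessions were called, against 19.3% in the fit used above. With median centring and centring on tested probes 0 and 1 subunits fell. With no filter on dim probes 3 fell, where 5.29% of all accessions were called. Leaving out 1 replicate gave 0 to 3 risen and 0 to 8 fallen subunits, and for all probes 0 to 1502 risen and 0 to 1419 fallen. The 0 in each case is without replicate 2, where limma gave an unadjusted p under 0.05 to 2228 probes above 0 and 2010 below it. Over all probes, 1763 risen and 1569 fallen became 2891 risen with offset 0, 2809 risen from Agilent's processed ratio, 3001 and 2523 with the intensity trend, 1066 and 997 with no filter, where 41000 probes were tested, 3604 and 58 with median centring, and 3127 and 1087 with centring on tested probes. The subunit median log2 ratio of -0.20 became 0.54 with median centring and 0.22 with centring on tested probes, and it ran from -0.31 to -0.082 without 1 replicate. TMEM126A was 3.36 with median centring and 3.35 with Agilent's processed ratio, and 2.53 to 2.96 without 1 replicate. Of 372 values of single subunits under alternatives, 289 kept direction and side of the threshold, and 30 changed sign. With the direction kept, 26 more lost and 27 gained a call. The 30 changes of sign were counted apart, also where a call was lost or gained with them. Sign changes with median centring were NDUFS3 0.018, NDUFS7 0.085, NDUFA7 0.13, NDUFA5 0.14, NDUFB1 0.14, NDUFB9 0.24, NDUFS6 0.28, NDUFS5 0.43, NDUFA3 0.54, NDUFA2 0.58, NDUFS1 0.64, NDUFB2 0.67, NDUFB4 0.73 and NDUFS8 0.80, of which NDUFB2 and NDUFS8 were called. With centring on tested probes they were NDUFS5 0.12, NDUFA3 0.22, NDUFA2 0.26, NDUFS1 0.32, NDUFB2 0.35, NDUFB4 0.42 and NDUFS8 0.48, the last called. NDUFS8, at -0.036, was 0.041 with offset 0, 0.020 with Agilent's processed ratio and 0.027 with the series value table. Leaving out 1 replicate gave means on both sides of 0 for NDUFS8 (-0.17 to 0.10), NDUFA3 (-0.33 to 0.043), NDUFB4 (-0.24 to 0.049), NDUFS4 (-0.0093 to 0.044), NDUFC2 (-0.032 to 0.16) and NDUFS1 (-0.21 to 0.18), none of them called. The cause of these differences was not tested. Under the alternatives run, none of the 8 called subunits was called in the opposite direction.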
